A study of Mus musculus with 4 samples.

Results

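The cells described here carry the label s5 in the authors' second clustering of mesenteric lymph node (mLN) CD4 T cells, which numbers its subsets s0 to s9. They were chosen by that label and by the authors' own filter, and were 632 of 9041 cells with such a label and of 16948 cells that the authors kept. The 4 groups of male mice had 1 library each, from pooled mLN of 3 mice. Germ-free Foxp3GFP mice carry a GFP reporter in Foxp3, the gene of the transcription factor that defines regulatory T (Treg) cells. Colonized Foxp3GFP mice were former germ-free mice given fecal microbiota of specific-pathogen-free mice, and were examined 9 days later. Germ-free and colonized Foxp3CNS1- mice lack CNS1, an enhancer in a Foxp3 intron that helps turn the gene on in Treg cells formed outside the thymus, in all their cells. For each library, equal numbers of sorted GFP-positive and GFP-negative CD4 T cells were mixed, and about 5000 cells were targeted. The sort therefore sets the share of Treg cells.

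By its leading genes s5 was follicular helper-like. T follicular helper (Tfh) cells move into B cell follicles by way of the chemokine receptor CXCR5, under the transcription factor BCL6, and there give B cells IL-4, IL-21 and CD40 ligand. They carry high PD-1, and the adaptor SAP keeps them in contact with B cells. In lymph nodes that drain the gut they support germinal centres that make antibody to the microbiota. The cells also need low activity of the IL-2 receptor pathway, which opposes BCL6.

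The library and subset depths were as follows. The s5 cells numbered 106 and 140 in the germ-free and colonized Foxp3GFP libraries and 146 and 240 in those of Foxp3CNS1-. Their summed unique molecular identifier (UMI) counts were 365285, 576389, 456765 and 1003682 in this order, and their median UMIs per cell 2790, 3810, 2552 and 3598. Over all libraries the median was 3335 UMIs per s5 cell against 2489 per other labelled cell. The share of s5 among labelled cells was 6.74% (exact 95% interval 5.55 to 8.10), 6.82% (5.76 to 7.99), 7.76% (6.59 to 9.06) and 6.79% (5.99 to 7.67). These shares are given with no order between libraries, because the genes that define the subset differed between libraries too. No s5 cell shared a barcode with another library's s5 cell, while 157 barcodes occurred in over 1 library among all kept cells. Levels below are CPM, a gene's UMIs scaled to a common total in the cells named. Ratios carry an exact 95% interval (Clopper-Pearson), which covers counting error and not the spread between mice or libraries. With 1 library per group there was no replicate and no test. Group differences cannot be told apart from those of library or batch.

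Promoter sequences are shown for Il4 and Il21, the B cell helper cytokine genes whose levels in s5 the results turn on. Each is the 250 bases upstream of the annotated start in RefSeq (GRCm38.p6), 5′ to 3′ on the gene's strand. Capitals mark matches to the core of the NFAT site (ATTTTCC, or GGAAAAT on the other strand).
Il4 promoter, chr11:53618666-53618915, minus strand: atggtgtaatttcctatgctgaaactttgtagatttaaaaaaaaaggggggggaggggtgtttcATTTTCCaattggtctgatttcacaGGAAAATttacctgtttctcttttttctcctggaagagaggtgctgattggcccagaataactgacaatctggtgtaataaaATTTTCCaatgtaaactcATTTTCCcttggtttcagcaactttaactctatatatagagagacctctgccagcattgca
Il21 promoter, chr3:37232637-37232886, minus strand: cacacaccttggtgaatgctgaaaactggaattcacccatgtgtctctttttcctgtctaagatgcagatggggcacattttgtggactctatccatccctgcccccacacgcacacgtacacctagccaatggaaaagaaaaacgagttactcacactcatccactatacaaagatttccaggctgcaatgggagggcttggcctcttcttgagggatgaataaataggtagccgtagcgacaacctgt
The Il4 window held 4 matches, which began at -186, -161, -79 and -61 from the start. Of 32851 windows of this length, 4.16% held at least 1 match of either strand, and 1 window held 4 or more. The Il21 window held no match to these letters. It does hold the shorter run GGAAAA, which was not searched for, so the window cannot be said to lack NFAT sites. A match is a description of the letters and not a site shown to be bound.

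The genes that set s5 apart from the 8409 other labelled cells are a description, since the clustering used them. Sostdc1, which encodes a secreted antagonist of BMP and WNT signals, led with 352 CPM in s5 against 20.02 in the other cells. It was detected in 20.3% of s5 cells and 1.55% of the others. Pdcd1, which encodes PD-1, had 388 against 59.5 CPM and was found in 55.7% of s5 cells. Among genes with a UMI in at least 10% of s5 or of the other cells, 99 of 4162 (2.38%) were at least 2-fold higher in s5 and 83 (1.99%) at least 2-fold lower. The 25 genes with the highest ratio and a UMI in at least 10% of s5 cells had log2 ratios of 1.79 to 4.14. Each of the 25 was higher in s5 in all 4 libraries. Others of the 25 were the keratin gene Krt83 (69.9 against 5.75 CPM), the peptidylarginine deiminase gene Padi4 (59.1 against 6.95) and the LIM-domain factor gene Lmo4 (110 against 18.9). Tnfsf8, the gene of CD30 ligand, had 308 against 72.8 CPM, and Cd160, which encodes a receptor for HVEM, had 101 against 25.2.

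The list of 13 Tfh genes was higher throughout in s5. Of its members, 11 reached the detection minimum, all 11 were higher and 10 passed 2-fold. Their median log2 ratio was 2.36, against 0.09 over the 4162 genes, of which 61.2% were higher to any extent. Bcl6 had 35.4 CPM in s5 against 6.24 in the other cells, and Cxcr5 had 130 against 39.0. The coactivator gene Tox2 had 132 against 25.7 CPM, and Sh2d1a, which encodes SAP, had 675 against 284. The transcription factor gene Ascl2 had 46.2 against 3.36 CPM and lay just under the detection minimum, with a UMI in 9.65% of s5 cells. The gene just inside that minimum was Slc22a15, an organic cation transporter gene, detected in 10.1% of cells. Il21, in 8.86% of cells, also lay under it and had 32.9 against 5.87 CPM. Cd40lg, the gene of CD40 ligand, had 98.7 against 29.5 CPM and Tcf7, which encodes TCF1, had 391 against 142.

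**Figure D1:**
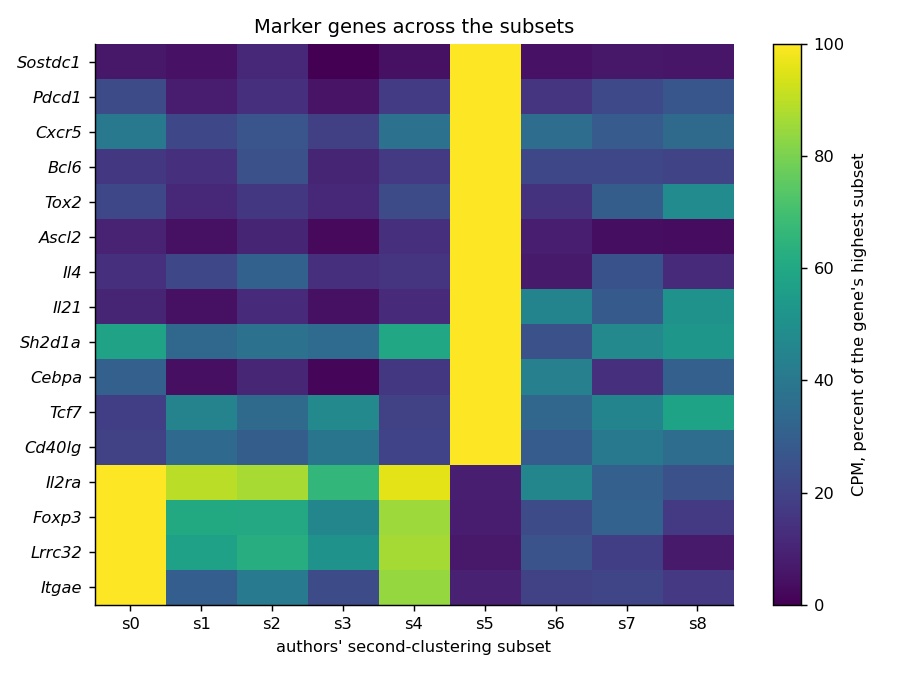
Each row is a gene and each column a subset of the authors' second clustering (s9, with 17 cells, is left out); colour gives the CPM as a percent of the gene's highest subset. The upper 12 genes have their highest level in s5, and the 4 Treg genes at the bottom have their lowest or near-lowest level there.

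Il4 and Il21 were read together in a minority of the cells with either. Il4 was found in 148 s5 cells, Il21 in 56, and both in 21. The cells with both were 37.5% of the Il21 cells and 14.2% of the Il4 cells. Over all 632 s5 cells Il4 was found in 23.4% and Il21 in 8.86%. Each gene was thus read more often in cells with the other than over all s5 cells, which was not tested. Sostdc1 was found in 128 cells, of which 65 also had Il4. In cells thinned to 1500 UMIs the same counts were 86 cells with Il4, 27 with Il21 and 7 with both. There 25.9% of the Il21 cells had Il4, against 13.9% of all thinned s5 cells. Cxcr5 and Pdcd1 were read together in 153 of the 211 cells with Cxcr5, or 72.5%, where 55.7% of all s5 cells had Pdcd1. After thinning 55.4% of the Cxcr5 cells had Pdcd1, against 37.3% of all thinned s5 cells. Il4 and Cxcr5 showed no such excess. Of the Il4 cells 31.8% had Cxcr5, against 33.4% of all s5 cells, and after thinning 16.3% against 18.1%. At this depth a cell without a UMI cannot be called a cell without the transcript.

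Treg and IL-2 pathway genes were low in s5. Foxp3 (mm10 chromosome X, 7573644 to 7595245) had 27.4 and 6.94 CPM in the germ-free and colonized Foxp3GFP libraries and 15.3 and 21.9 CPM in those of Foxp3CNS1-. Behind these are 10, 4, 7 and 22 UMIs, under the minimum for a ratio in every comparison. The deletion of CNS1 lies outside the transcript's counted 3′ end, so they say nothing of the genotype. Of s5 cells with a Foxp3 UMI there were 33 among 632, or 5.22% (exact interval 3.62 to 7.26), at a median of 3335 UMIs per cell. Such a UMI was found in 5.54% of the cells of the authors' first clusters 1 and 2, which have a naive profile, at a median of 2697, and in 28.7% of the other labelled cells. After thinning these shares were 2.26%, 3.11% and 18.5%. Over all libraries the share in s5 was therefore no higher than in the naive-profile cells. By library it was 7.55% against 7.02% and 2.86% against 5.75% in germ-free and colonized Foxp3GFP. In Foxp3CNS1- it was 4.11% against 6.23% and 6.25% against 3.18%. After thinning only germ-free Foxp3GFP had the higher share in s5 (4.90% against 3.92%), and colonized Foxp3CNS1- had 1.27% against 1.61%. The 33 s5 cells with a Foxp3 UMI differed from the 599 without one in other Treg genes. Ikzf2 had 643 CPM in them, 229 in the s5 cells without a Foxp3 UMI and 645 in the 2416 other labelled cells with one. Capg, an actin-capping protein gene, had 499, 157 and 639 CPM in the same order, and Lrrc32 had 54.1 (9 UMIs), 7.16 and 131. Pdcd1 had 150, 406 and 39.7 CPM, and Sostdc1 had 54.1, 374 and 11.6. Other Treg list genes differed, with the IL-2 receptor gene Il2ra at 42.1 (7 UMIs), 14.8 and 236 CPM. Tnfrsf18 had 355, 201 and 637 CPM, and Ikzf4 had 48.1 (8 UMIs), 7.16 and 49.5. The 33 cells thus lay between the other groups in Pdcd1, Sostdc1, Lrrc32, Il2ra and Tnfrsf18. They lay near the other Foxp3 cells in Ikzf2 and Ikzf4. Whether they are single cells was not tested. The 10 lowest genes of s5 had log2 ratios of -3.16 to -2.17, and each was lower in s5 in all 4 libraries. They included Gbp3 and Gbp7, interferon-inducible GTPase genes, at 16.7 against 74.8 and 26.6 against 122 CPM. All 12 detected members of the Treg list were lower in s5 and 10 were at least 2-fold lower. Il2ra, the IL-2 receptor alpha chain gene, had 16.7 against 148 CPM. Lrrc32, which encodes the TGF-beta anchor GARP, had 10.4 against 88.1 CPM, and the integrin gene Itgae had 17.1 against 85.9. All 10 detected members of the IL-2 and STAT5 response list were lower, 7 of them at least 2-fold. The cells compared with s5 are rich in Treg cells, with a Foxp3 UMI in 28.7% of them against 5.22% of s5 cells. The part of this in the Treg and IL-2 values was not tested.

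Genes of other T cell states divided. The list of coinhibitory and CD28-family receptors had 7 of 9 members higher, 4 of them at least 2-fold, among them Pdcd1, Cd160 and Btla (84.9 against 29.7 CPM). Ctla4 of the same list was lower, at 77.4 against 166 CPM. Of 12 detected homing and egress genes, 9 were lower. Klf2, which drives the lymph node exit receptor, had 226 against 495 CPM, and the gut homing receptor gene Ccr9 had 9.99 against 58.8. Of 12 glycolysis genes, 11 were higher, with Aldoa at 722 against 459 CPM and none at least 2-fold higher. Mki67, a marker of dividing cells, had 5.41 against 31.7 CPM. The helper lineage genes Tbx21, Ifng and Il17a had 4.58, 4.16 and 2.50 CPM in s5, and the Il17a UMIs came from 1 cell. These genes do not stand for their lists. The Th1 helper list, which holds Tbx21 and Ifng, summed to 155 CPM in s5 and 128 in the other cells. The Th17 helper list, which holds Il17a, summed to 167 and 134 CPM. For the Th2 helper list, which holds Il4, the sums were 195 and 108 CPM.

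Markers of other cell types were read in s5 at levels that differed by list. Of 9 B cell list genes, 8 had a UMI in s5, and they summed to 807 CPM in s5 and 1267 in the other cells. In s5 the sum was 1109 and 642 CPM in the germ-free and colonized Foxp3GFP libraries and 1042 and 685 in those of Foxp3CNS1-. In the other cells it was 1241, 1255, 1359 and 1248 CPM. The B cell sum was thus lower in the colonized library of each genotype in s5 and differed less in the other cells. The plasma cell list summed to 244 and 101 CPM in s5 of Foxp3GFP and to 134 and 117 in s5 of Foxp3CNS1-. In the other cells it was 77.5 and 1513, and 85.2 and 996 CPM, so s5 was above them in both germ-free libraries and below them in both colonized ones. The myeloid and dendritic list summed to 170 CPM in s5 and 176 in the others, with Itgam at 0. The stromal and epithelial list summed to 77.8 against 54.4 CPM, with Krt8 at 0, and the natural killer T and gamma-delta T list to 36.2 against 26.2. Cd8a was at 0 in s5, and the erythroid list had no UMI there.

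The s5 cells came from several clusters of the authors' first clustering. Cluster 0 held 270 of them, cluster 5 held 256 and cluster 9 held 83, and 23 lay in other clusters. Of the 84 cells of cluster 9, 83 were s5 cells, against 8.49% of cluster 0 and 15.1% of cluster 5. The summed CPM of the 13 Tfh genes was 2640 in the cluster 0 part, 2377 in the cluster 5 part and 4989 in the cluster 9 part. In the cells of clusters 0 and 5 outside s5 it was 705 and 804. Sostdc1 varied among the parts, with 443 CPM in the cluster 0 part, 121 in the cluster 5 part and 1060 in the cluster 9 part. Pdcd1 had 349, 330 and 849 CPM in the same order. Klf2 went the other way, with 229, 269 and 70.1 CPM. Cxcr5 (101, 141 and 186 CPM) and Tcf7 (372, 412 and 421) varied less.

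The makeup differed between libraries. Cluster 0 gave 34.0% and 40.7% of s5 cells in the germ-free and colonized Foxp3GFP libraries and 61.6% and 36.3% in those of Foxp3CNS1-. Cluster 5 gave 32.1%, 45.0%, 25.3% and 50.8% in the same order. Cluster 9 gave 23.6%, 12.1%, 11.6% and 10.0%. The part of this makeup in the values over all s5 cells was not tested as a whole, so the values within clusters 0 and 5 are given beside the comparisons below.

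**Figure D2:**
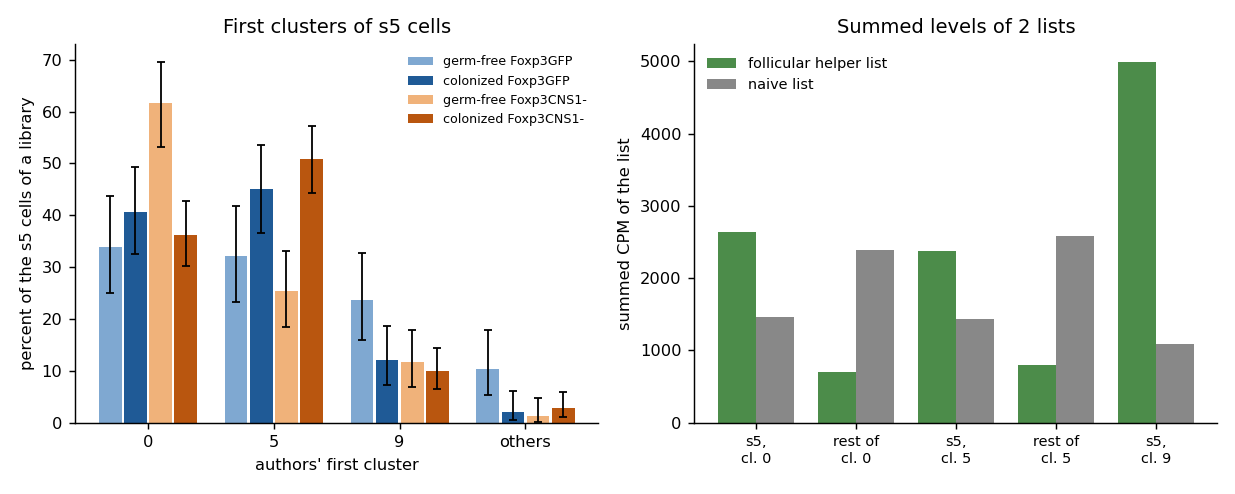
Left, percent of each library's s5 cells that lie in the authors' first clusters 0, 5, 9 or others, with exact 95% binomial bars; right, summed CPM of the Tfh and naive lists in the s5 cells of each first cluster and in the rest of clusters 0 and 5. The cluster 9 part has the highest Tfh sum. The s5 parts of clusters 0 and 5 lie above the rest of their cluster in the Tfh sum and below it in the naive sum.

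The first comparison asked how s5 cells of colonized and germ-free mice differed in Foxp3GFP mice. Sostdc1, Il4, Tnfrsf4 and Ikzf2 were lower after colonization, and Ly6a, Satb1, Klf2 and Socs3 were higher. Of 3885 genes that reached 30 UMIs when both libraries were added, 80 (2.06%) were at least 2-fold higher and 168 (4.32%) at least 2-fold lower. Of the 1282 genes with at least 100 UMIs, 29 (2.26%) passed 2-fold in either direction. In the other labelled cells 1.95% of 9746 genes were at least 2-fold higher and 1.15% lower. To any extent 41.4% of the 3885 genes were higher in s5 and 58.6% lower, which is the background for the list counts that follow.

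Sostdc1, Il4 and Pdcd1 are among the leading genes of s5. Sostdc1 had 791 CPM (289 UMIs in 40 cells) in germ-free and 234 CPM (135 UMIs in 21 cells) in colonized Foxp3GFP mice, a log2 ratio of -1.76 (-2.06 to -1.46). Il4 had 175 and 48.6 CPM, a log2 ratio of -1.85 (-2.55 to -1.19), and Pdcd1 had 556 and 283 CPM (-0.97, -1.28 to -0.67). The HMG-box factor gene Tox had 553 and 229 CPM (-1.27, -1.60 to -0.95). Of 13 Tfh genes tested, 11 were lower and 5 at least 2-fold lower, with a median log2 ratio of -0.77 against -0.10 over all genes. The same 13 genes had a median of -0.16 in the other cells, where Sostdc1 had 43.4 and 9.08 CPM and Il4 had 9.60 and 9.23. Not all Tfh genes followed. Cxcr5 had 153 and 132 CPM (-0.22, -0.73 to 0.31), Tox2 had 142 and 135 (-0.07, -0.60 to 0.46), and Slamf6, a SLAM-family receptor gene, had 274 and 404 (0.56, 0.22 to 0.92). For Tox2 the parts of s5 differed, with -1.01 (-1.96 to -0.07) in the cluster 0 part and 0.73 (-0.18 to 1.75) in the cluster 5 part, and Cxcr5 had 0.21 and -0.70 there. The B cell sum in s5 was also lower in the colonized library (1109 and 642 CPM), and its part in these results was not tested.

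Genes of the Treg lists were also lower, although Treg genes were low in s5. Of 13 Treg list genes 6 could be tested, and all 6 were lower, 1 of them at least 2-fold, with a median log2 ratio of -0.68 in s5 and 0.08 in the other cells. Of 6 effector Treg genes tested 5 were lower, 2 at least 2-fold, with medians of -0.48 and 0.07. Ikzf2, the gene of the transcription factor Helios and a member of the Treg list, had 558 and 182 CPM (-1.62, -1.97 to -1.27). The effector Treg list holds Tnfrsf4 and Tnfrsf9, which are also on the TNF receptor costimulation list. In that list 3 of 6 genes tested were higher and 3 lower. Tnfrsf4, which encodes OX40, had 821 CPM in germ-free and 258 in colonized Foxp3GFP mice (-1.67, -1.96 to -1.38), while the other cells had 662 and 711. Tnfrsf9 (4-1BB) had 145 and 29.5 CPM (-2.30, -3.18 to -1.49), and Cd83, an activation marker, had 142 and 27.8 (-2.36, -3.27 to -1.53). Of 15 genes of the T cell receptor response list, 10 were lower, a share near the 58.6% over all genes, and 3 at least 2-fold lower, with a median of -0.60 against -0.10 in the other cells. Ppic, a cyclophilin gene, had 79.4 and 8.68 CPM, and Nrn1, which encodes neuritin, had 93.1 and 17.4. The neuropeptide gene Gal had 30 UMIs in 3 cells of germ-free and none in colonized Foxp3GFP mice. With the 0 set to a floor of 3 counts this is 15.8-fold lower, which is not a bound.

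The highest-ranked genes on the higher side included Ly6a, Satb1, Klf2 and Socs3. Ly6a, the interferon-induced gene of Sca-1, had 101 CPM in germ-free and 661 in colonized mice, a log2 ratio of 2.71 (2.22 to 3.23). In the other cells it had 145 and 654 CPM. The germ-free s5 level (exact interval 71.3 to 139.6) lay below that of the other cells, and the colonized one (596 to 731) included it. Satb1, a chromatin organizer gene, had 27.4 and 179 CPM (2.71, 1.77 to 3.81), Klf2 had 84.9 and 370 (2.12, 1.57 to 2.72), and the feedback inhibitor gene Socs3 had 19.2 and 102 (2.42, 1.29 to 3.79). For Klf2 and Satb1 the ratios in the other cells were -0.03 and 0.37. Of 10 naive list genes tested, 9 were higher and 6 at least 2-fold higher, with a median of 1.34 against -0.07 in the other cells. The median was 0.38 in cells thinned to 1500 UMIs, where 6 of the genes could be tested. All 11 interferon-stimulated genes tested were higher, 1 of them at least 2-fold, with a median of 0.68 in s5 and 1.45 in the other cells. That gene was Bst2, which encodes tetherin, with 32.9 and 132 CPM (4.01-fold higher). Trib2, Gpr18 and Dapl1 had log2 ratios of 2.59, 3.20 and 2.84, on 6, 2 and 3 UMIs in the germ-free library.

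**Figure D3:**
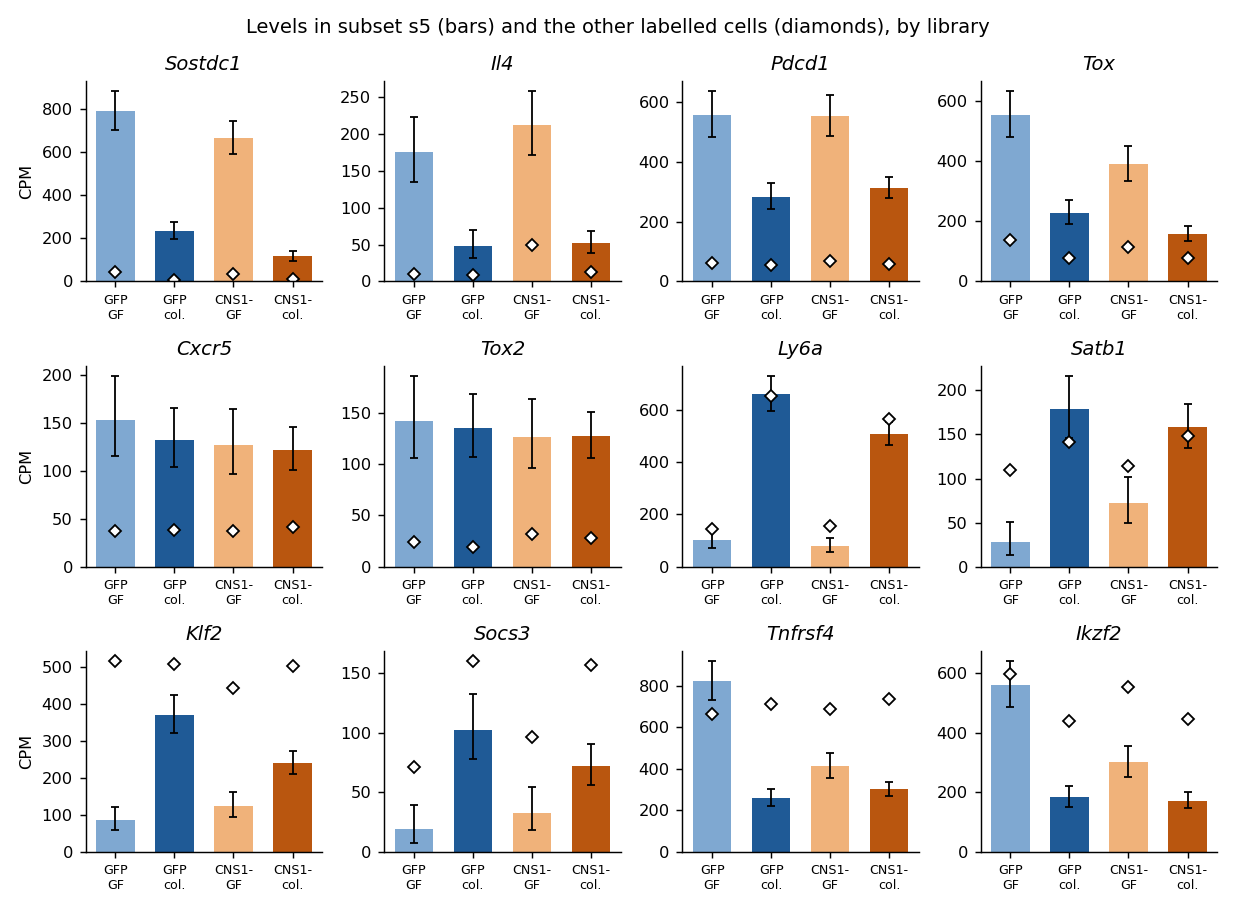
CPM in s5 by library (bars, with exact 95% Poisson bars for counting error) and in the other labelled cells (diamonds); GF is germ-free and col. colonized. Sostdc1, Il4, Pdcd1, Tox, Tnfrsf4 and Ikzf2 are lower, and Ly6a, Satb1, Klf2 and Socs3 higher, in the colonized library of each genotype, while the bars of Cxcr5 and of Tox2 overlap.

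Within the first clusters the highest-ranked genes kept their direction. All 8 higher and all 8 lower named genes had the same direction in the s5 cells of cluster 0 and in those of cluster 5. The genes were ranked in all s5 cells, these among them, so the kept direction is no independent support. The interval left out no change for 6 higher and 7 lower genes in cluster 0, and for 7 and 8 in cluster 5. Sostdc1 had 693 and 270 CPM in the cluster 0 part (-1.36, -1.86 to -0.86) and 454 and 49.8 in the cluster 5 part (-3.19, -4.14 to -2.33). Klf2 had 96.5 and 322 CPM in the cluster 0 part and 121 and 473 in the cluster 5 part. The interval of Il4 held no change in the cluster 5 part (-1.41, -2.95 to 0.08).

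The second comparison asked the same in Foxp3CNS1- mice, with 2 other libraries. Sostdc1, Il4 and Cd83 were again lower and Ly6a again higher in the colonized library. Of 5038 genes, 104 (2.06%) were at least 2-fold higher and 167 (3.31%) at least 2-fold lower, and of the 1978 with at least 100 UMIs 47 (2.38%) passed 2-fold. To any extent 42.1% of genes were higher and 57.9% lower. In the other cells 1.85% were at least 2-fold higher and 1.62% lower. Sostdc1 had 666 CPM (304 UMIs in 45 cells) in germ-free and 118 CPM (118 UMIs in 22 cells) in colonized Foxp3CNS1- mice, a log2 ratio of -2.50 (-2.82 to -2.19). Il4 had 212 and 51.8 CPM (-2.04, -2.55 to -1.53), and in the other cells 49.7 and 12.7. Of 12 Tfh genes tested, 9 were lower and 6 at least 2-fold lower, with a median of -0.93 in s5 and -0.53 in the other cells. Pdcd1 had 552 and 314 CPM (-0.81, -1.06 to -0.57), and Tox had 390 and 157 (-1.31, -1.63 to -0.99). Cxcr5 had 127 and 122 CPM (-0.06, -0.53 to 0.41), and Tox2 had 127 and 128 (0.01, -0.45 to 0.48). The B cell sum in s5 was lower after colonization here too (1042 and 685 CPM), and its part in these results was not tested.

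Other highly ranked genes on the lower side had varied roles. Rgs16, a G protein signalling regulator gene, had 96.3 CPM in germ-free and 20.9 in colonized Foxp3CNS1- mice (-2.20, -3.03 to -1.42). Gpm6b, a membrane glycoprotein gene, had 252 and 56.8 CPM (-2.15, -2.63 to -1.68). Cd83 had 136 and 31.9 CPM (-2.09, -2.75 to -1.45), and the phosphatase inhibitor gene Ppp1r14b had 409 and 138 (-1.56, -1.89 to -1.24). Krt83 had 140 and 39.9 CPM (-1.81, -2.42 to -1.22), with a ratio of 0.42 in the other cells. Gal had 27 UMIs in 8 cells and 4 UMIs in 2 cells. Of 14 genes of the T cell receptor response list, 12 were lower and 5 at least 2-fold lower, with a median of -0.69 in s5 and -0.21 in the other cells. Of 7 Treg list genes tested 6 were lower, 1 at least 2-fold, with medians of -0.55 and 0.01. All 7 TNF receptor costimulation genes tested were lower, 1 at least 2-fold, with medians of -0.46 and 0.05.

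On the higher side Ly6a had 78.8 CPM in germ-free and 509 in colonized Foxp3CNS1- mice (2.69, 2.20 to 3.22). The other cells had 157 and 567 CPM. Trat1, which encodes an adaptor of the T cell receptor complex, had 10.9 and 65.8 CPM (2.59, 1.29 to 4.26), and Pkp4, a plakophilin gene, had 4.38 and 35.9 (3.03, 1.08 to 6.13). The long noncoding RNA Morrbid rested on 1 and 29 UMIs. Plac8 had no UMI in germ-free and 51 UMIs in 12 cells of colonized mice, 7.74-fold higher with the 0 set to 3 counts. It had 22.7 and 136 CPM in the other cells. Car2, a carbonic anhydrase gene, came from 2 cells, and Nkg7, a cytotoxic granule gene, had 73 UMIs in 9 cells of colonized and 9 in 3 cells of germ-free mice. Of 11 naive list genes, 9 were higher and 2 at least 2-fold higher (median 0.58, against 0.09 in the other cells). Of 13 interferon-stimulated genes, 10 were higher, 2 of them at least 2-fold, with a median of 0.48 in s5 and 0.88 in the other cells. In the cluster 0 part all 16 named genes kept their direction, and in the cluster 5 part 15 did, the other being Car2, which had no UMI there. Here too the genes were ranked in all s5 cells, these among them, so this is no independent support. Klf2, not among the 16, had 88 and 324 CPM in the cluster 0 part and 241 and 205 in the cluster 5 part.

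**Figure D4:**
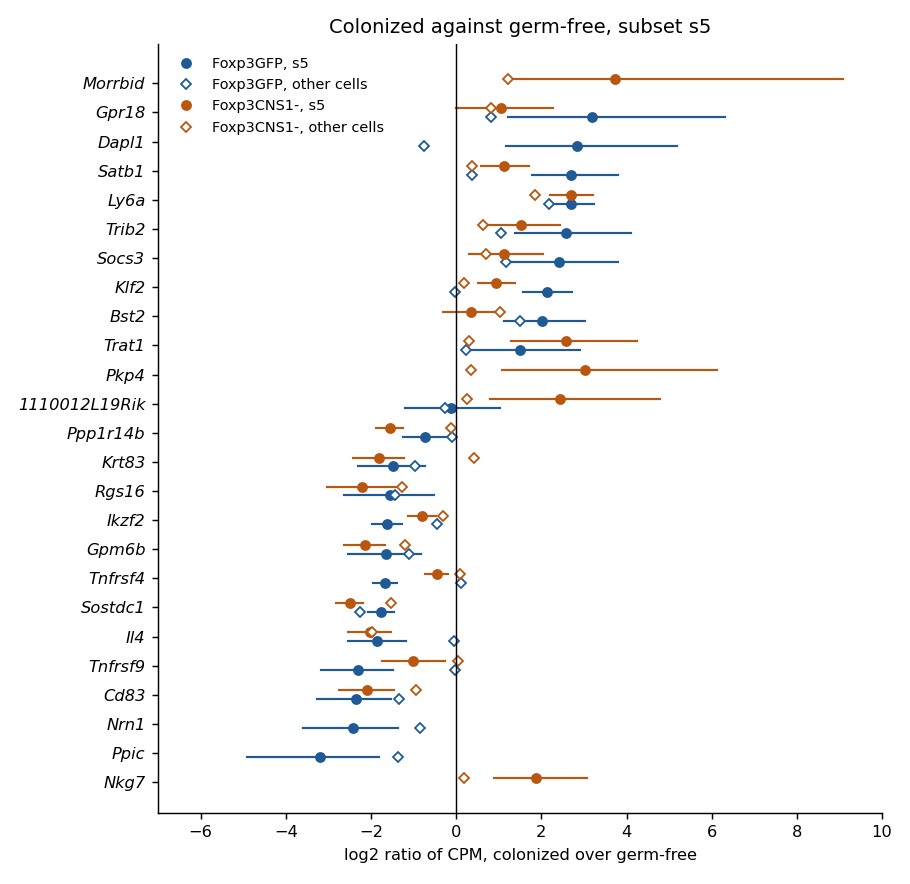
Log2 ratio of CPM, colonized over germ-free, for the genes named in either genotype with finite intervals; filled points are s5 with exact 95% intervals, open diamonds the other labelled cells, and a gene under 30 UMIs in a genotype has no point there. Sostdc1, Il4, Cd83 and Rgs16 lie below 0 and Ly6a above 0 in both genotypes.

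The 2 colonization comparisons share no library. Over the 3845 genes tested in both, 78 were at least 2-fold higher in Foxp3GFP and 51 in Foxp3CNS1-, and 20 were in both lists, which is 25.6% and 39.2% of them. At least 2-fold lower were 160 and 110 genes, with 39 in both, or 24.4% and 35.5%. No gene passed 2-fold in opposite directions. The lists were short against the 3845 genes, and how many such genes unrelated lists would hold was not tested. Of the 160 genes lower in Foxp3GFP, 87.5% were lower to any extent in Foxp3CNS1-, where 57.2% of all genes were lower. Of the 78 genes higher in Foxp3GFP, 74.4% were higher to any extent in Foxp3CNS1-, where 42.8% of all genes were higher. The genes lower in both included Sostdc1, Il4, Tox, Cd83, Krt83, Tnfsf8, Cd160 and Ascl2, and those higher in both included Ly6a, Satb1, Trib2, Socs3 and Actn1. These examples were chosen after their values were seen. Some ratios were farther from 0 in Foxp3GFP, such as Tnfrsf4 (-1.67 against -0.46) and Klf2 (2.12 against 0.94), and the difference between genotypes was not tested. Most of the 25 leading genes of s5 were lower in the other cells too. In Foxp3GFP 19 of 24 tested were lower in s5 and 19 of 25 in the other cells, with medians of -0.71 and -0.21, where 53.1% of all genes in the other cells were lower. In Foxp3CNS1- 21 of 25 and 19 of 25 were lower, with medians of -1.02 and -0.29, against 57.4% of all genes in the other cells.

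The third comparison set Foxp3CNS1- against Foxp3GFP in germ-free mice. Few well-counted genes differed by 2-fold. Of 3644 genes 51 (1.40%) were at least 2-fold higher and 69 (1.89%) at least 2-fold lower, and of the 1148 with at least 100 UMIs 4 (0.348%) passed 2-fold. To any extent 48.2% were higher and 51.8% lower, and in the other cells 0.995% were at least 2-fold higher and 0.37% lower. Padi4 had 43.8 CPM in Foxp3GFP and 138 in Foxp3CNS1- (1.65, 0.85 to 2.55), with a ratio of 1.39 in the other cells. Gpm6b had 104 and 252 CPM (1.28, 0.73 to 1.84), and Ppp1r14b had 194 and 409 (1.07, 0.67 to 1.49). Cd44, an adhesion receptor gene, had 73.9 and 155 CPM (1.07, 0.41 to 1.77). Apoe, the apolipoprotein E gene, had 31 UMIs in 4 cells of Foxp3GFP and 97 in 15 cells of Foxp3CNS1-, and its direction was not kept in the cluster 5 part (-0.12). Lower were Tnfrsf4, at 821 and 414 CPM (-0.99, -1.26 to -0.72), Ikzf2, at 558 and 300 (-0.90, -1.22 to -0.58), and S100a6, a calcium-binding protein gene, at 255 and 127 (2.01-fold lower). S100a4, a related gene, had 148 and 48.2 CPM (-1.62, -2.40 to -0.88), but 0.53 in the cluster 0 part. Uck1, Neat1, Sp3os, Ybx3, Ufsp2, Cdk2ap1 and Dynlt1f also ranked among the 16, each on at most 36 UMIs in a library. Of 13 Tfh genes tested 11 were lower and 1 at least 2-fold lower, with a median of -0.17 in s5 and 0.23 in the other cells. That gene was Il21, with 71.2 and 30.7 CPM (-1.22, -2.27 to -0.23). Its direction was not kept in the cluster 0 part, with 17.5 and 35.1 CPM on 2 and 10 UMIs, and its ratio was -2.62 in the cluster 5 part. All 10 NF-kappaB genes tested were lower, 2 of them at least 2-fold, with a median of -0.54 in s5 and 0.04 in the other cells. This is 1 of 35 lists examined.

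The fourth comparison set the same genotypes against each other after colonization. Of 5183 genes 53 (1.02%) were at least 2-fold higher and 57 (1.10%) at least 2-fold lower, and 0 of the 2079 with at least 100 UMIs passed 2-fold. To any extent 50.2% were higher and 49.8% lower, and in the other cells 0.702% were at least 2-fold higher and 0.375% lower. Interferon-stimulated genes were lower in Foxp3CNS1-. Of 15 tested, 14 were lower, 1 at least 2-fold, with a median of -0.49 in s5 and -0.23 in the other cells. Ifit3, an antiviral gene, had 43.4 CPM (25 UMIs in 10 cells) in Foxp3GFP and 7.97 CPM (8 UMIs in 7 cells) in Foxp3CNS1- (-2.44, -3.80 to -1.25). Ifi27l2a had 3713 and 2470 CPM (-0.59, -0.67 to -0.50), and Bst2 had 132 and 74.7 (-0.82, -1.30 to -0.34). Sostdc1 had 234 and 118 CPM (-0.99, -1.36 to -0.63), and its ratio was 0.35 in the cluster 5 part. Angptl2, an angiopoietin-like gene of the Tfh list, had 86.8 and 28.9 CPM (-1.59, -2.30 to -0.90). Il21 had 41.6 and 14.95 CPM (-1.48, -2.51 to -0.49), on 24 and 15 UMIs. Il4, by contrast, had 48.6 and 51.8 CPM (0.09, -0.60 to 0.81), with ratios of -0.36 and 0.82 in the cluster 0 and cluster 5 parts, and Pdcd1 had 283 and 314 (0.15, -0.13 to 0.43). Of 13 Tfh genes 7 were lower, with a median of -0.09. Some of the higher genes rested on few cells, or on few UMIs in Foxp3GFP. Nkg7 had 1 UMI in Foxp3GFP, Car2 had none, and Plac8 had 11 UMIs in 7 cells. The immediate early gene Fos had 48.6 and 15.9 CPM (-1.61, -2.59 to -0.67). Ddx1, Cds2, Cmpk1, Eif2d and Zfp91 were 1.98 to 3.88-fold higher, and Ifi213, Tmem131l, Topbp1 and Dapl1 were 2.69 to 3.83-fold lower.

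**Figure D5:**
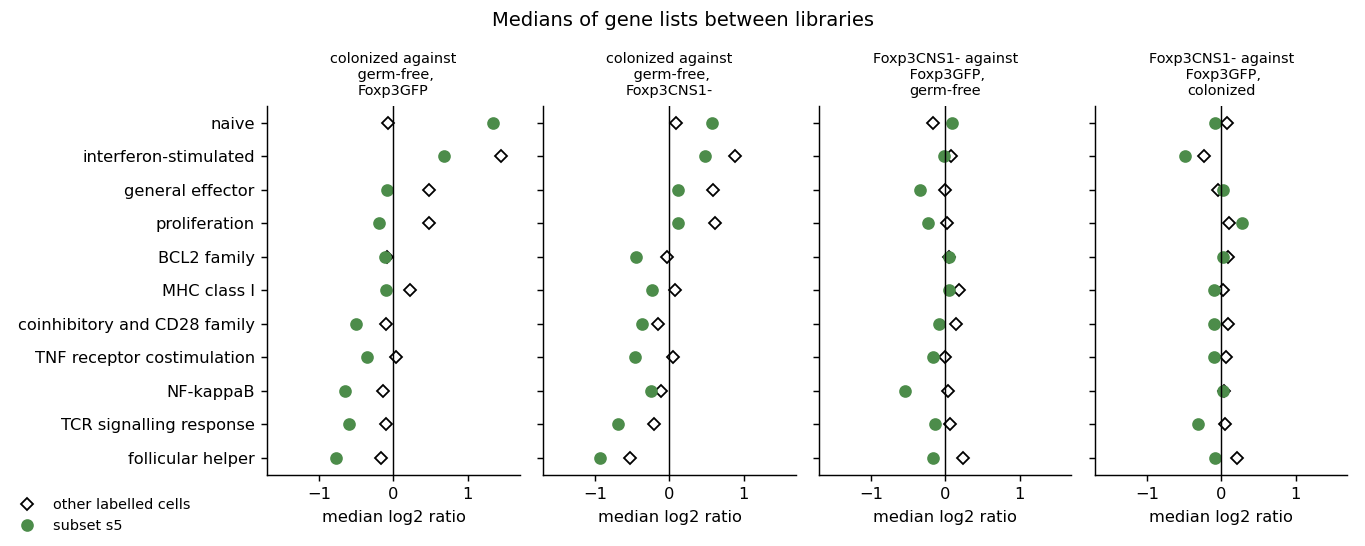
Median log2 ratio of gene lists in s5 (filled circles) and of the same genes in the other labelled cells (open diamonds) for the 4 comparisons between libraries. Under colonization the Tfh and T cell receptor lists lie below 0 and the naive and interferon lists above 0 in s5 of both genotypes, and the Tfh medians of the genotype comparisons are -0.17 and -0.09.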

How the data were processed

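Single-cell libraries of sorted mLN CD4 T cells (10x 3′ v3) gave the deposited UMI counts, made by the authors with Cell Ranger and Scanpy 1.5.1 on mm10, per the submitters' processing notes. Versions and settings beyond these are not stated in the sources used here, and the values are whole numbers. Of 17478 cells and 13314 genes in the count table, 17251 cells had a row in the cell table, whose cluster labels were used as the authors gave them, and 303 marked as removed were left out. The other 3 columns of the cell table were not used.

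UMIs were summed per library and scaled to CPM. A ratio needed at least 30 UMIs over both libraries. Intervals and the floor of 3 counts cover counting error only. Past the fold means 2-fold. Named between libraries were up to 8 genes per direction whose interval bound nearest to no change was farthest from it, and against the other labelled cells the 25 highest and 10 lowest genes with a UMI in 10% of cells. The ranking left out Xist, predicted and Y-linked genes, and those of T cell receptors, immunoglobulins, ribosomes and mitochondria. Members and the 35 gene lists were chosen with earlier results of these data known. Gene positions are from GENCODE M21, which held 13164 of the symbols. No doublet caller was run, and leaving out cells above the 98th percentile of UMIs is an alternative. Calculations (Python with numpy 2.4.6, pandas 2.3.3 and scipy 1.17.1, and edgeR 4.0.16 for TMM factors alone) were tested on simulated data. Alternatives were the UMI and detection minimums, weighting per cell or per subset, TMM, thinning to 1500 UMIs and restriction to cells with a Foxp3 UMI.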

Additional observations from a re-analysis of the deposited data

How the results depend on the processing

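No paired analysis was possible because each group has 1 library. Every leading or lowest gene kept its direction in s5 under all alternatives run. The detection minimums of 5% and 25% change the list and not the ratios, so no direction could change there. The genes were chosen as the most extreme in these same cells, so the kept direction is no independent support. Of the 25 leading genes, 19 to 24 stayed in the list with 1 library left out, with equal weight per cell or per other subset, or with the 98th-percentile limit on UMIs (19 to 22 with 1 library left out). The list held 14 of them with a UMI required in 5% of cells, 7 with 25% and 13 after thinning to 1500 UMIs. Of all kept cells s5 was 2.66%, 3.47%, 4.13% and 4.44% in germ-free and colonized Foxp3GFP and germ-free and colonized Foxp3CNS1-, and of labelled cells with a Foxp3 UMI 1.86%, 0.606%, 1.44% and 1.59%.

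The number of genes past 2-fold depends on the UMI minimum, and the order here is colonization in Foxp3GFP, colonization in Foxp3CNS1-, genotype in germ-free and genotype in colonized mice. At a minimum of 15 UMIs it was 667, 697, 423 and 404, against 248, 271, 120 and 110 at 30 UMIs. At 100 UMIs it was 29, 47, 4 and 0, after thinning 92, 134, 58 and 64, and in the 33 cells with a Foxp3 UMI 30, 39, 13 and 39, where fewer genes could be tested. With equal weight per cell it was 169 for genotype in colonized mice. Restriction to the s5 cells of a first cluster was chosen after seeing the data. In cluster 0 it gave 124 and 151 genes for colonization in Foxp3GFP and Foxp3CNS1-, and in cluster 5 it gave 124 for colonization in Foxp3GFP and 40 for genotype in germ-free mice, with fewer cells and genes.

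There were 468 values of the genes named between libraries. Of these, 64 at the minimum of 15 UMIs and 20 at 100 UMIs repeat the reported ratio and could not change. The others come from the same cells in which the genes were ranked, so the count is no independent support. Of the 468 values, 462 kept their direction. Those that did not were Ikzf2 (0.46, colonization in Foxp3GFP), Ppp1r14b (2.21, colonization in Foxp3CNS1-) and Tnfrsf4 (0.10, germ-free genotype) in cells with a Foxp3 UMI. The rest were S100a4 (0.53) in cluster 0, Apoe (-0.12) in cluster 5, and Sostdc1 (0.35, colonized genotype) in cluster 5. The cause was not tested. The naive list median of colonization in Foxp3GFP was 0.50 at 100 UMIs and 0.38 after thinning, and 1.34 as reported. The Tfh median of colonization in Foxp3CNS1- was -1.48 in cluster 0. Genes with few UMIs limit the precision: 30 UMIs over both libraries leave wide intervals, and where a few cells carry most of a gene's UMIs the intervals understate the error.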
